A study of Mus musculus with 3 samples.

Results

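PLZF, the product of Zbtb16, belongs to the BTB zinc finger family of transcription factors. The 10 family genes described here are Zbtb16, Zbtb7b, Zbtb7a, Zbtb1, Zbtb17, Zbtb20, Zbtb32, Bcl6, Patz1 and Zbtb10, regulators of lymphocytes for the most part, out of 19518 genes measured by a probe set with a single annotated gene. They were taken by name, and a gene with several such probe sets is given by the one with the highest mean log2 intensity. Each of 3 Affymetrix Mouse Gene 1.0 ST arrays held the RNA of 1 genotype, namely PLZF lu/lu, PLZF +/lu and PLZF +/+ (written PLZFlu/lu, PLZF+/lu and PLZF+/+). The labels call the cells gammadelta NKT cells from female C57Bl/6 mice, 3 to 4 weeks old, and the study's methods add that they were double-sorted CD4+CD8α- thymocytes. Per those methods, all 3 groups carried the Vγ1Vδ6.4 T cell receptor transgenes on a Rag1-/- background, so that the controls too had no receptor but the transgenic one and their hosts no mature B cells or αβ T cells. No agent was given. The luxoid (lu) allele is a point mutation of the PLZF gene, and how many mice stand behind each array is not given.

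Factors of this family join an N-terminal BTB domain, through which they pair with themselves or each other and bind corepressors or the ubiquitin ligase scaffold CUL3, to C-terminal zinc fingers that read DNA. Several of them direct choices of fate in T cells. PLZF gives NKT and other innate-like T cells their effector program while they are still in the thymus, and ThPOK, the product of Zbtb7b, commits thymocytes to the CD4 lineage and represses the CD8 coreceptor genes. PATZ1 (also called MAZR) opposes ThPOK in cells of the CD8 lineage, LRF, the product of Zbtb7a, acts beside ThPOK, and BCL6 directs follicular helper T cells.

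Of the 10 genes, Zbtb16 and Zbtb7b were lower by more than 2-fold in PLZFlu/lu than in PLZF+/+ thymocytes, and the other 8 differed by at most 1.21-fold by the probe sets used. With 1 array per genotype there is no replicate check, no test was run, and the limit of 2-fold is a rule on size alone. By that rule 0.43% of all genes were past 2-fold and 0.272% were lower, against 2 of the 10 regulators, both lower. The members were picked with results of these arrays known, so this share is a description. The median log2 difference was 0.00 over the 10 genes and 0.00 over all genes. Equal values in the 2 genotypes, found for 30% of the 10 genes and 58.1% of all genes, set both medians. In a sorted population, fewer cells that express a gene and less RNA per cell cannot be told apart.

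Values are probe set intensities on a linear scale as deposited. They are compared between genotypes for 1 gene and not between genes, apart from sums over marker lists. In such a sum the bright probe sets weigh most. The array medians were 159.7 in PLZFlu/lu, 161.8 in PLZF+/lu and 160.02 in PLZF+/+, and a level of 108, under which 95% of the values of 1033 olfactory receptor probe sets fell, describes the background. All 10 regulators lay above it on each array. Values identical on all 3 arrays were found for 46.8% of all genes and 33.6% of those above background. The sources do not say how these arose, so an identical value cannot be read as unchanged expression. T cell genes were bright, with Cd3e at 10599, 11334 and 10550 in PLZFlu/lu, PLZF+/lu and PLZF+/+. Cd4 was at 7191, 6208 and 6401. Of 8 measured T cell markers, 7 were higher in PLZFlu/lu than in PLZF+/+, 0 lower and 1 equal, with log2 differences up to 0.34. Among genes above background 19.6% were higher, 35.7% lower and 44.7% equal. The B cell genes Ms4a1 and Cd79a, the myeloid genes Lyz2 and Csf1r and the epithelial gene Epcam lay below 108 on every array, at 34.0, 38.8, 69.1, 72.5 and 66.7. Of the same lists, 3 of 6 B cell, 4 of 9 myeloid and 3 of 7 epithelial markers lay above 108 on at least 1 array. So did 2 of 4 erythroid and 5 of 7 stromal and endothelial markers. Among them, Cd79b was at 1406, 1440 and 1658 in PLZFlu/lu, PLZF+/lu and PLZF+/+, and Krt8 at 173, 185 and 185. Cd68 was at 386 and the endothelial gene Pecam1 at 2643 on all 3 arrays. These genes were named after their values were seen. Measured markers were 6 for B cells, 9 for myeloid cells, 4 for erythroid cells, 7 for thymic epithelium and 7 for stroma and endothelium. None of them differed by more than 2-fold between PLZFlu/lu and PLZF+/+, a rule that 0.43% of all genes met. In lists this short such an absence says little, and several of these markers lay below background or were identical on all arrays. The one that differed most was Pdgfrb, at 202, 265 and 324.

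**Figure D1:**
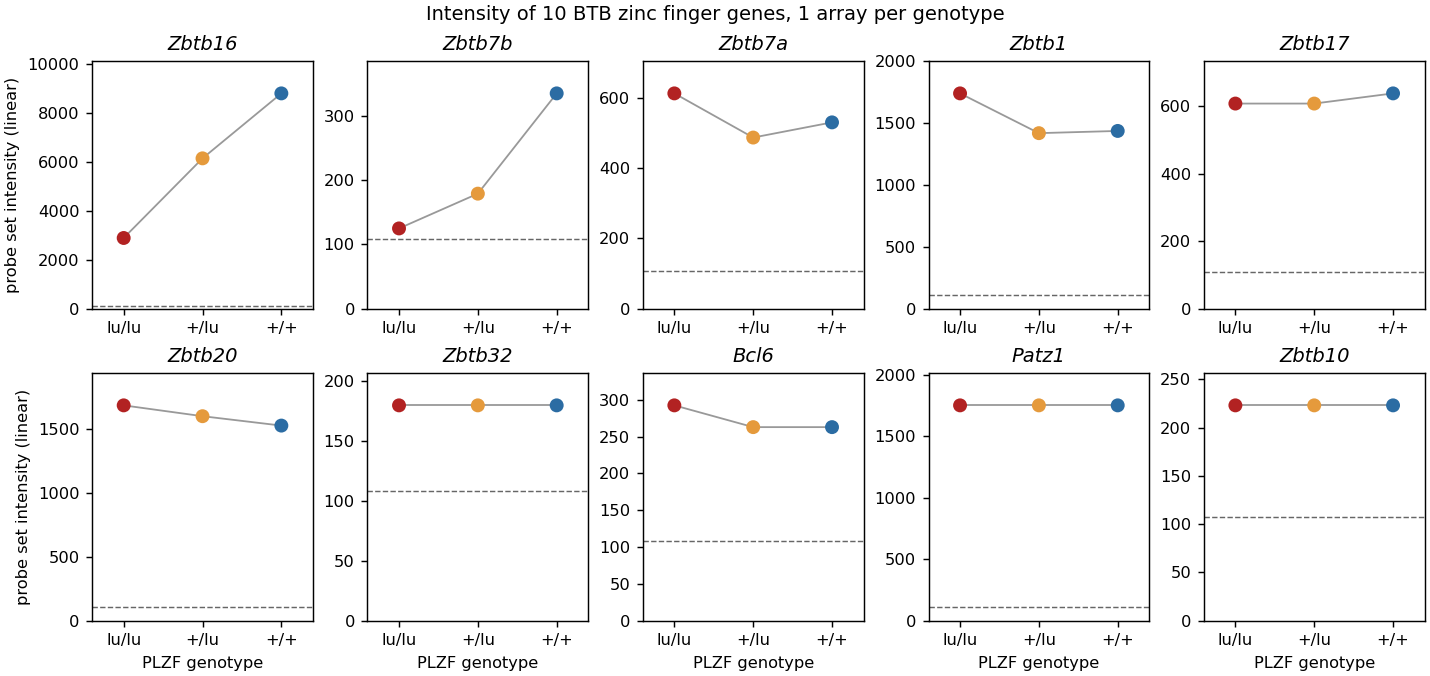
Probe set intensity (linear scale, each panel with its own axis from 0) of the 10 regulators, with 1 point per array and so no error bars; the dashed line is the background level of 108. Zbtb16 and Zbtb7b increase from left to right across PLZFlu/lu, PLZF+/lu and PLZF+/+, while Zbtb32, Patz1 and Zbtb10 lie flat.

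Zbtb16, the gene that carries the mutation, was at 2890 in PLZFlu/lu, 6143 in PLZF+/lu and 8796 in PLZF+/+ cells. It was 3.04-fold lower in PLZFlu/lu than in PLZF+/+, a log2 difference of -1.61, and stood 24th of 19518 genes by the size of that difference. The transcript of the mutant allele was thus still well above the background, and the array says nothing of the protein. PLZF+/lu cells differed from PLZF+/+ by -0.52 on the log2 scale, or 1.43-fold, and PLZFlu/lu cells from PLZF+/lu by -1.09, or 2.13-fold. This second step was past 2-fold, as for 0.123% of all genes in either direction and 0.0769% that were lower. On the linear scale PLZF+/lu lay near the midpoint of the outer genotypes, which is 5843, at position 0.55 where 0 is PLZFlu/lu and 1 is PLZF+/+. Its position was 0.68 on the log2 scale. The probe set checks the labels in part only, since a point mutation need not remove the transcript.

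Zbtb7b, which encodes ThPOK, was at 125 in PLZFlu/lu, 179 in PLZF+/lu and 335 in PLZF+/+ cells. It was 2.68-fold lower in PLZFlu/lu than in PLZF+/+, a log2 difference of -1.42, and stood 37th of all genes. The larger step lay between PLZF+/lu and PLZF+/+, while for Zbtb16 it lay between PLZFlu/lu and PLZF+/lu. PLZF+/lu cells were 1.87-fold below PLZF+/+, and PLZFlu/lu cells 1.43-fold below PLZF+/lu, neither past 2-fold, a rule that 0.133% of all genes met between PLZF+/lu and PLZF+/+. PLZF+/lu lay at position 0.26 on the linear scale and 0.36 on the log2 scale, nearer to PLZFlu/lu. The PLZFlu/lu value lies close to the background of 108, and with 32 added to each intensity the log2 difference was -1.23. When the PLZF+/+ and PLZF+/lu values were averaged on the log2 scale as the baseline, the difference of PLZFlu/lu was -0.97 and below 2-fold, which is partly built in, since PLZF+/lu lay between the others.

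The Zbtb7b promoters are shown since this is the member, besides the mutated gene, whose transcript passed 2-fold. RefSeq (GRCm38.p6) places 2 starts of the gene on the minus strand, and each window runs from 250 bases before to 50 bases after the start, 5′ to 3′, with matches to the GC box (GGGCGG) and to the RUNX motif (TGTGGT) in capitals.
Zbtb7b, chr3:89393329-89393628, minus strand: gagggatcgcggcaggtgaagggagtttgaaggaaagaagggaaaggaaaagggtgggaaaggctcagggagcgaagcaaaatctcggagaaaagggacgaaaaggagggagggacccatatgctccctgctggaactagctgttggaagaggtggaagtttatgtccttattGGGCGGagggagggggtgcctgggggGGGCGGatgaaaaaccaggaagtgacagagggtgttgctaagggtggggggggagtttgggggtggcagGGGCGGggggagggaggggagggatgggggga
Zbtb7b, chr3:89387622-89387921, minus strand: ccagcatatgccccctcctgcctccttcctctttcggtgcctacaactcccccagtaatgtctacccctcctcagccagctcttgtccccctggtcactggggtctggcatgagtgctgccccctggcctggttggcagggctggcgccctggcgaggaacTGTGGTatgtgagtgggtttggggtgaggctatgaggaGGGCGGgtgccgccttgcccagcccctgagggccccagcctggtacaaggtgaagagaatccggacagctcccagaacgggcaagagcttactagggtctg
The upstream window holds 3 GC boxes and 0 RUNX matches, and the downstream one holds 1 of each, with both strands searched and no overlap between these matches. Of 32544 distinct promoter windows of the same length, 35.9% hold a GC box and 16.7% the RUNX motif. The EGR motif GCGNGGGCG, found in 5.60% of windows, and the GATA motif AGATAA, found in 11.2%, are in neither Zbtb7b window. The E-box CANNTG, found in 72.3% of windows and not capitalised here, has 2 matches in the upstream window and 1 in the downstream one. A match is a description of the letters only. The array cannot say which start was used.

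Zbtb7a and Zbtb1 were somewhat higher in PLZFlu/lu cells, opposite in direction to Zbtb7b. Zbtb7a, which encodes LRF, was at 612 in PLZFlu/lu, 487 in PLZF+/lu and 530 in PLZF+/+. Its log2 difference between PLZFlu/lu and PLZF+/+ was 0.21, and PLZF+/lu had the lowest value, outside the range of the others. Zbtb1, a factor needed for lymphocyte development, was at 1741, 1419 and 1437 in the same order of genotypes. The log2 difference of 0.28 was the highest among the 8 regulators within 2-fold, and PLZF+/lu lay next to PLZF+/+. The differences of Zbtb1 and Zbtb7a stood at percentiles 90.6 and 85.7 by absolute size among the 11973 genes above background.

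Bcl6 and Zbtb20 differed by less. Bcl6 was at 292 in PLZFlu/lu and at 263 in both PLZF+/lu and PLZF+/+, a log2 difference of 0.15. Zbtb20, a regulator of plasma cells, was at 1682, 1597 and 1524 in PLZFlu/lu, PLZF+/lu and PLZF+/+, with a log2 difference of 0.14. It is the member with 2 probe sets, and the other one read 1786, 1674 and 1358, a log2 difference of 0.40. Both probe sets put the genotypes in the same order, but with different sizes. Zbtb17, which encodes MIZ-1, the partner of MYC, was at 608 in both PLZFlu/lu and PLZF+/lu and 638 in PLZF+/+, a log2 difference of -0.07.

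Patz1, Zbtb32 and Zbtb10 had identical values on the 3 arrays, at 1750, 180 and 223. Patz1 encodes the factor that represses Zbtb7b in CD8 lineage cells, and Zbtb32 one that is induced in activated lymphocytes and represses GATA3. These 3 make 30.0% of the 10 genes, beside 33.6% of the genes above background. PLZF+/lu lay strictly between the outer genotypes for Zbtb16, Zbtb7b and Zbtb20, 3 of the 10, as for 11.4% of all genes and 17.4% of those above background. No member stayed equal on all arrays after quantile normalization, median centring or cyclic loess. PLZF+/lu lay between for 7 after quantile normalization, beside 32.9% of genes above background, and for 5 after cyclic loess, beside 33.2%.

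The rest of the family lay close to 0. Of 39 other BTB zinc finger genes listed, 38 were measured and 36 lay above background. None was past 2-fold in any of the 3 comparisons, where all genes gave 0.43%, 0.133% and 0.123%. Between PLZFlu/lu and PLZF+/+, 5 were higher, 14 lower and 19 equal, with a median log2 difference of 0.00 and a range from -0.24 to 0.25. Lower values also outnumbered higher ones over the genes above background, of which 19.6% were higher, 35.7% lower and 44.7% equal. The ends of that range were Zbtb48, a telomere-binding protein gene, at 258 in PLZFlu/lu, 305 in PLZF+/lu and 305 in PLZF+/+, and Zbtb25 at 1162, 1037 and 978. Zbtb11 was at 1765, 1619 and 1545, a log2 difference of 0.19. Across the 48 measured family genes, members included, Zbtb16 and Zbtb7b were thus the ones past 2-fold between PLZFlu/lu and PLZF+/+, and by the probe sets used no other differed by more than 1.21-fold in that comparison.

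**Figure D2:**
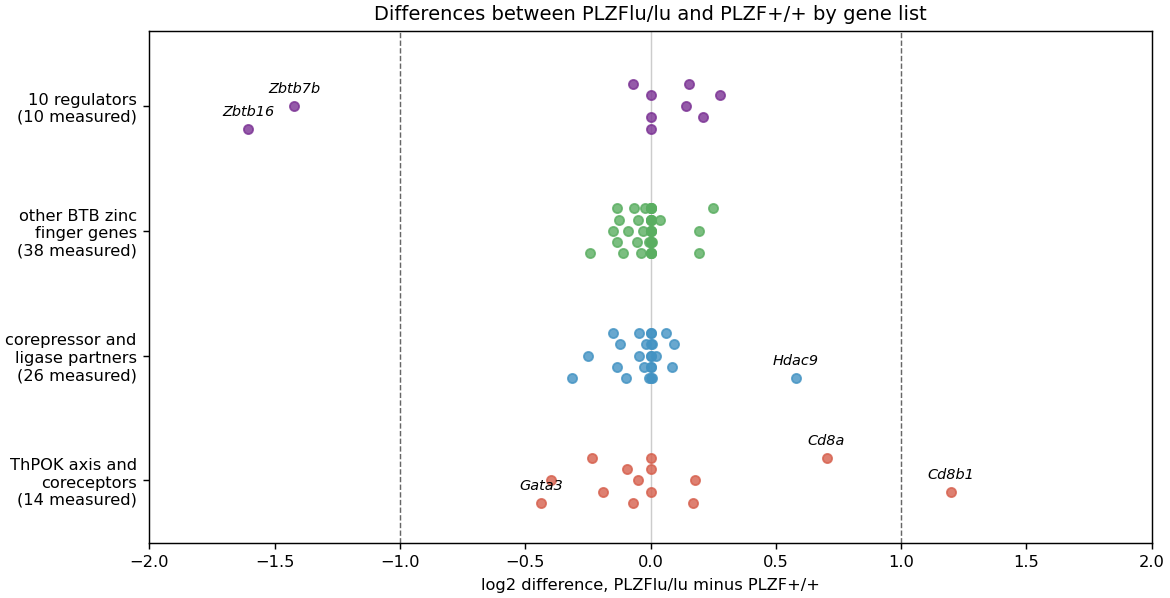
Log2 difference between PLZFlu/lu and PLZF+/+ (horizontal axis) for each measured gene of 4 lists, with 1 point per gene, vertical jitter for display and genes beyond 0.4 named. Dashed lines mark 2-fold; Zbtb16 and Zbtb7b lie left of the line at -1 and Cd8b1 right of the line at 1.

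Of 28 listed genes for proteins that BTB zinc finger factors bind, 26 were measured. None of these transcripts was past 2-fold between PLZFlu/lu and PLZF+/+, where 0.43% of all genes were. In a list this short such an absence says little. In PLZFlu/lu, 8 were higher, 11 lower and 7 equal, with a median of 0.00, beside 19.6% higher, 35.7% lower and 44.7% equal among genes above background. Cul3, the ubiquitin ligase scaffold that PLZF is known to bind, was at 4821 on all 3 arrays, and the corepressor deacetylase gene Hdac3 at 3473 on all 3. The largest difference was that of Hdac9, a class IIa deacetylase gene, at 513 in PLZFlu/lu, 464 in PLZF+/lu and 343 in PLZF+/+, a log2 difference of 0.58. Bcor, the BCL6 corepressor gene, was at 494, 451 and 613, a log2 difference of -0.31. Cbfa2t2, of the ETO family of corepressors, was at 620, 600.2 and 736, a log2 difference of -0.25. It has 2 probe sets, and averaged over both the log2 difference was -0.12. Cul3 and Hdac3 were chosen after their values were seen.

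Coreceptor genes and regulators tied to ThPOK were compared next, since ThPOK is known to repress Cd8a, Cd8b1 and Runx3 and to be induced by GATA3. Cd8b1, the CD8 beta chain, was at 2958 in PLZFlu/lu, 2263 in PLZF+/lu and 1290 in PLZF+/+, a log2 difference of 1.20, and was the single one of 14 measured genes past 2-fold, where 0.159% of all genes were higher by as much. Cd8a was at 601, 519 and 369, a log2 difference of 0.70. Both ran opposite to Zbtb7b across the genotypes. Gata3 was at 3175, 3260 and 4297, a log2 difference of -0.44. Runx3, which was chosen after its values were seen, was at 825, 882 and 1087, a log2 difference of -0.40, and so ran in the same direction as Zbtb7b. Over the 14 genes, 4 were higher in PLZFlu/lu, 7 lower and 3 equal, with a median of -0.02, and lower values likewise outnumbered higher ones among genes above background (35.7% and 19.6%). The study names Cd8b1 and Zbtb7b from these same arrays, and the list was not chosen independently of that. By qPCR of NKT cells from mice without the receptor transgenes, the study saw no consistent change of Zbtb7b with PLZF genotype. It proposes that control of ThPOK by PLZF has no non-redundant part under physiological conditions.

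**Figure D3:**
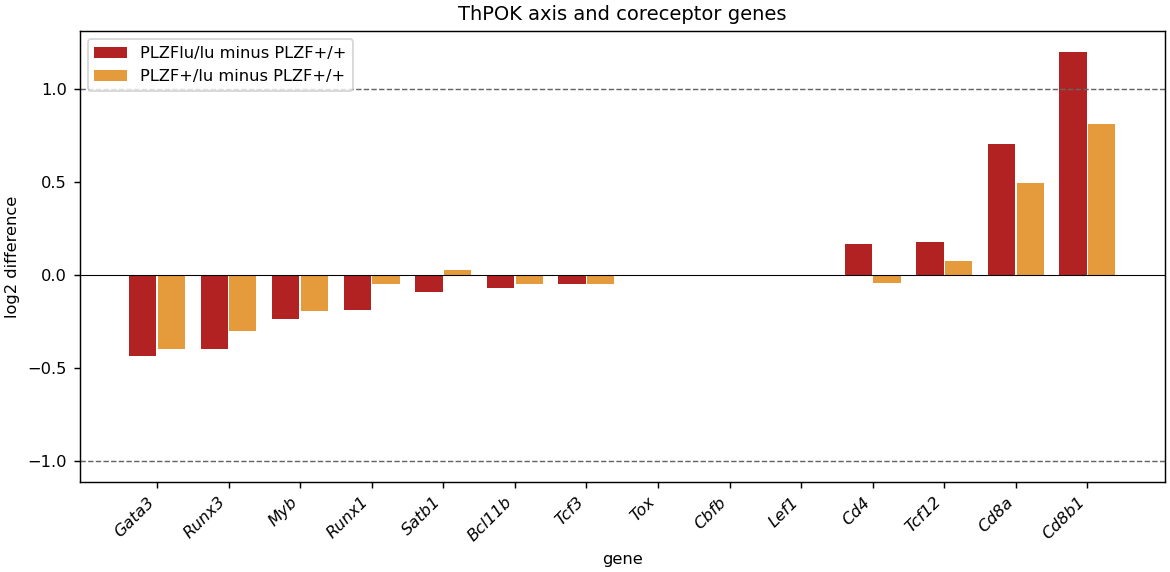
Log2 differences of the 14 measured ThPOK axis and coreceptor genes, with PLZFlu/lu minus PLZF+/+ in red and PLZF+/lu minus PLZF+/+ in orange; both share the PLZF+/+ array, and dashed lines mark 2-fold. Cd8b1 (1.20) and Cd8a (0.70) stand at the right and Gata3 (-0.44) at the left.

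The sort was made on CD4 and CD8α, and Cd8a and Cd8b1 also mark CD4+CD8+ thymocytes. Of the 7 measured genes on a list of markers of those cells, 4 were higher in PLZFlu/lu than in PLZF+/+, 1 lower and 2 equal. Among genes above background 19.6% were higher, 35.7% lower and 44.7% equal. The summed intensity of the 7 genes was 17901 in PLZFlu/lu, 16210 in PLZF+/lu and 16432 in PLZF+/+. Most of that sum was Ccr9, at 12274, 11485 and 12864, and without it the sums of the other 6 genes, Cd8a and Cd8b1 among them, were 5627, 4725 and 3568. Most of the difference between these sums is that of Cd8b1 and Cd8a themselves, whose values are given above. Ptcra, the pre-TCR chain gene of that list, was at 167 on all 3 arrays, and Dntt was at 210, 157 and 162. The rest of the list was Cd1d1, at 1052 on all 3, and Arpp21, at 640, 567 and 529. Of 7 measured genes that respond to cell handling, 5 were lower in PLZFlu/lu and 2 higher. The shares of genes above background were 35.7% lower and 19.6% higher. The sums over these 7 genes were 5540, 7463 and 7263. Dusp1, a phosphatase gene, was at 2898, 4693 and 4451, and without it the sums were 2642, 2770 and 2812. The part of either list in the values of Zbtb16 and Zbtb7b was not tested.

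Genes whose pattern over the 3 arrays was most like that of Zbtb16 were ranked by the distance between their pairs of log2 differences from PLZF+/+, among 11310 genes whose brightest value lay above background. With 3 arrays many genes can share a pattern, and the pairs share the PLZF+/+ array, so this is a description. Id2, an inhibitor of E proteins, was nearest, at 4554 in PLZFlu/lu, 9322 in PLZF+/lu and 13326 in PLZF+/+, with a distance of 0.06. Its log2 differences from PLZF+/+ were -1.55 in PLZFlu/lu and -0.52 in PLZF+/lu, against -1.61 and -0.52 for Zbtb16. Lmo4, which encodes a LIM-only adaptor of transcription complexes, came next at a distance of 0.19, with 3485, 8497 and 10656. The deubiquitinase gene Usp44 followed at 57.3, 127 and 162, the lowest of which lies below background. Nkd1, an antagonist of Wnt signalling, Eps8l1, the transporter gene Abcc1, the IL-12 receptor chain gene Il12rb1 and Prelid2 made up the 8, at distances up to 0.30. Il12rb1 was at 761, 1451 and 1917. All 8 were lower in PLZFlu/lu and in PLZF+/lu than in PLZF+/+, as the measure of likeness fixes.

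The same ranking was made for Zbtb7b. The nearest gene was Tfcp2l1, a transcription factor gene, at 136 in PLZFlu/lu, 197 in PLZF+/lu and 374 in PLZF+/+, with a distance of 0.05. Lxn, which encodes the carboxypeptidase inhibitor latexin, was at 784, 1064 and 2041. Tnfsf4, the gene of OX40 ligand, was at 65.5, 94.7 and 186, of which the first 2 lie below background. Sdf2l1, of the endoplasmic reticulum, was at 596, 753 and 1494, and Il18r1, the IL-18 receptor chain gene, at 228, 333 and 667. PLZF+/lu lay at positions from 0.25 to 0.37 on the log2 scale in these 5 genes and from 0.52 to 0.80 in the 8 neighbours of Zbtb16, which the choice of the genes by the same differences fixes.

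**Figure D4:**
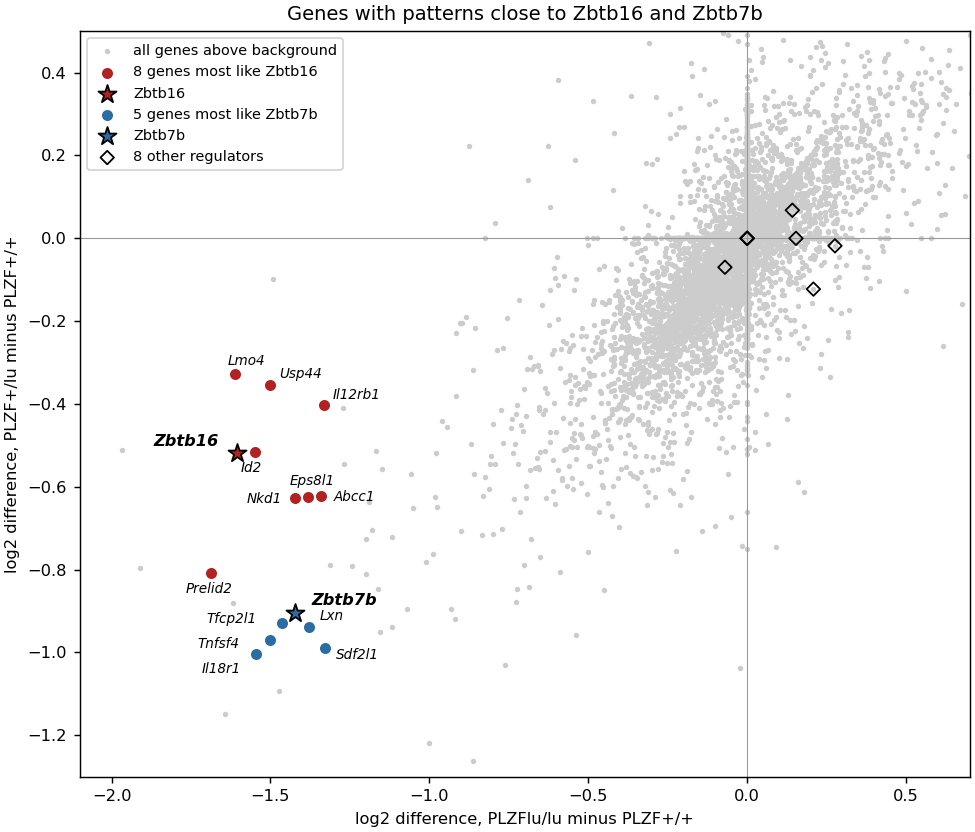
Log2 difference of PLZFlu/lu from PLZF+/+ (horizontal) against that of PLZF+/lu from PLZF+/+ (vertical) for genes above background, with axes limited to the region shown. Stars are Zbtb16 and Zbtb7b, red and blue points the 8 and 5 genes nearest to each, and open diamonds the other 8 regulators, which lie around 0.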

How the data were processed

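RNA of sorted thymocytes was hybridised to 3 Affymetrix Mouse Gene 1.0 ST arrays, 1 per genotype. In GenePattern the authors ran ExpressionFileCreator, MultiplotPreprocess and Multiplot, left normalization controls out, and deposited 24800 linear intensity values for each array. The build in the submitters' processing notes is mm 8. The sources used here do not give how background was corrected and how probes were summarised and scaled; all 3 columns were matched to a sample by accession.

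Of the probe sets, 21065 list 1 gene on the platform annotation, 1187 several and 2548 none, and 20983 symbols were brought up to date by gene ID (RefSeq, GRCm38.p6). Intensities were used as deposited and compared on the log2 scale, PLZFlu/lu or PLZF+/lu minus PLZF+/+ and PLZFlu/lu minus PLZF+/lu, with more than 2-fold counted. Arrays whose log2 values differed by under 1e-06 counted as equal. With 1 array per genotype no test was possible, and precision is limited by the number of arrays. The procedure was checked on simulated data. The members and lists were chosen with earlier results of these data known. Named genes are the 10 members, in each list the 3 with the largest difference, and the 8 and 5 genes nearest in pattern to Zbtb16 and Zbtb7b by Euclidean distance, leaving out T cell receptor segments and gene models without a usual symbol; others are marked. Promoter sequences come from the RefSeq table, which held 8 of the 10 members. The alternatives were quantile normalization, cyclic loess, median centring, a pseudocount of 32, leaving out dim genes, averaging the probe sets of a gene, thresholds of 1.5-fold and 3-fold, and, for Zbtb16 and Zbtb7b, another baseline. The tools were R 4.3.3 and limma 3.58.1 for normalization, and Python 3.11.15, numpy 2.4.6, pandas 2.3.3 and matplotlib 3.10.9 for the rest. The qPCR, flow cytometry and published profiles of the study were not analysed here.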

Additional observations from a re-analysis of the deposited data

How the results depend on the processing

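For 32 genes named in the text, the members included, the log2 difference between PLZFlu/lu and PLZF+/+ was recomputed in 6 settings (7 for Zbtb16 and Zbtb7b), and no value past 2-fold turned its direction; other genes past 2-fold were only counted, as under the other thresholds. The log2 difference of Zbtb16 ran from -1.61 to -1.35 and stayed past 2-fold in each of 7 settings. That of Zbtb7b ran from -1.42 to -0.97 over the same settings, and the value under 2-fold is the one with PLZF+/+ and PLZF+/lu averaged as baseline. For both genes, leaving out dim genes and averaging probe sets could not change the value. Each was read by 1 probe set, which lay above background. The number of members with PLZF+/lu between the others, 3 as deposited, was 7 after quantile normalization and 5 after cyclic loess. At 3-fold, 1 of the 10 members passed between PLZFlu/lu and PLZF+/+ and 0 between PLZFlu/lu and PLZF+/lu, and at 1.5-fold 1 member passed between PLZF+/lu and PLZF+/+. Of the ThPOK axis and coreceptor genes 2 passed at 1.5-fold and 0 at 3-fold. Over all genes, 84 were past 2-fold between PLZFlu/lu and PLZF+/+, 280 past 1.5-fold and 24 past 3-fold. Between PLZF+/lu and PLZF+/+ they were 26, 155 and 4 in that order of thresholds, and between PLZFlu/lu and PLZF+/lu 24, 104 and 0. No paired analysis was possible because each genotype has 1 array. Zbtb7b in PLZFlu/lu lies close to background, which limits the precision of its fold.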

Other observations

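Besides Zbtb20, 2 genes of the family were read by a second probe set. The dimmer probe set of Zbtb2 was at 520.3 in PLZFlu/lu, 392 in PLZF+/lu and 569.5 in PLZF+/+, and the brighter at 704, 647 and 722, so that PLZF+/lu was lowest in both. The dimmer probe set of Zbtb44 was at 502 in PLZFlu/lu and PLZF+/lu and 504 in PLZF+/+, and the brighter at 1633 on all 3 arrays.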
